A study of Homo sapiens with 64 samples.

Results

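DLD1 and HCT15 are human colorectal cancer cell lines of the colon cancer subtype CCS3, and their label-retaining cells (LRCs) were compared here. The measure is the LRC effect, the log2 ratio of LRCs over non-LRCs of the same line, and the comparison is the LRC effect in DLD1 minus the LRC effect in HCT15. A positive difference therefore means that a gene was relatively higher in LRCs of DLD1 than in LRCs of HCT15, each against its own non-LRCs. The samples were chosen by line and population from their labels, 16 of the 64 in the series, with 4 replicates of each of DLD1 LRCs, DLD1 non-LRCs (called BULK in the labels), HCT15 LRCs and HCT15 non-LRCs. All 16 came from cells stained with CFSE, grown as nonadherent spheroids in serum-free medium with EGF and bFGF, and sorted by FACS 6 days later. Neither line carried an added transgene or drug treatment in these groups. The paper lists different media for adherent culture, DMEM/F12 for DLD1 and RPMI for HCT15, and names the same media without serum for spheroids. Line and base medium therefore cannot be told apart. Each line is also 1 established line, so the lines can be compared only as these cultures.

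CFSE is a cell-permeable dye that binds to proteins inside the cell and is shared between daughter cells at each division. Cells that have divided little keep a bright signal and are sorted as LRCs, and cells that have divided often become dim and are sorted as non-LRCs. Cells that stop dividing usually lower the genes of DNA replication, which are switched on by E2F factors when RB is phosphorylated, and the genes of mitosis, which peak later and are controlled by the MuvB complex together with B-MYB and FOXM1. A cell that slows within the cycle can instead keep these transcripts. In the colon, Wnt and Notch signaling maintain the dividing cells of the crypt base, and APC is mutated in most colorectal cancers. DLD1 and HCT15 are known to derive from the same patient's tumor, are mismatch repair deficient, and have diverged in culture.

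Between 12237225 and 18253116 reads per sample were assigned to genes, with a median of 14569241. Before any comparison, replicates 1 and 2 stood apart from replicates 3 and 4 within every group. The chi-square statistic per gene between libraries of a group, which is near 1 for counting noise alone, was 2.60 to 4.58 within these pairs of numbers and 9.16 to 18.6 across them in DLD1. In HCT15 it was 6.27 to 17.8 within and 21.1 to 33.4 across. The LRC and non-LRC libraries with the same number deviated from their group means together. So did those with the other number within replicates 1 and 2 or within 3 and 4. Each result is therefore also given with the replicate number of each line as a block, which compares LRCs and non-LRCs of the same number. Of the marker lists for cell types, the 12 epithelial markers summed to 6620 to 8620 CPM (read counts scaled to library size). The fibroblast markers summed to at most 10.1 CPM and the endothelial markers to at most 3.86 CPM. The immune list summed to 6.19 to 16.9 CPM in DLD1 LRCs, 2.76 to 7.59 in DLD1 non-LRCs, 18.4 to 36.9 in HCT15 LRCs and 11.5 to 18.3 in HCT15 non-LRCs, with the lymphocyte genes CD3D, CD3E and MS4A1 at 0 in every library. Mitochondrial transcripts took 4.44% to 7.79% of the reads assigned to genes. The medians were 6.41% in DLD1 LRCs, 6.35% in DLD1 non-LRCs, 7.40% in HCT15 LRCs and 5.94% in HCT15 non-LRCs. The part of this share in the results was not tested.

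The LRC effect differed between the lines in 21 of 14616 genes tested (0.144%; edgeR's quasi-likelihood test, Benjamini-Hochberg adjusted p under 0.05), 18 of them higher in DLD1 (0.123%) and 3 higher in HCT15 (0.0205%). Each line alone had a similar number of changed genes. In DLD1, 867 genes passed (5.93%), 437 higher and 430 lower in LRCs, and in HCT15 871 genes passed (5.96%), 476 higher (3.26%) and 395 lower (2.70%). With the block, the difference passed in 3017 genes (20.6%), 1551 higher in DLD1 and 1466 higher in HCT15. Blocked counts within a line were 3502 (24%) in DLD1 and 3889 (26.6%) in HCT15. The unblocked test had 2619 genes at an unadjusted p under 0.05. All 21 genes also passed with the block, and the median difference over all genes tested was 0.013 on the log2 scale. Of the 3017 genes called with the block, 2998 were tested on replicates 1 and 2 alone and 2998 of these had the same sign there, and 3000 of the 3002 tested on replicates 3 and 4 alone had it. These replicates are part of the fit that called the genes, so the signs are not a separate check. The count without the block changed with the replicate number left out. It was 8, 17, 2 and 3 without replicates 1, 2, 3 and 4 of DLD1, and 5, 33, 11 and 65 without those of HCT15. With the block it stayed between 2039 and 3021 when any number was left out.

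By pattern, 8 of the 21 genes changed in opposite directions in the lines, with each line passing alone. MRC2, TNS2, PTK7, IDUA, SYTL2, FURIN and ANKRD29 rose in LRCs of DLD1 and fell in LRCs of HCT15, and TUBGCP4 fell in DLD1 and rose in HCT15. A further 9 rose in DLD1 and did not pass in HCT15. Of the genes that passed in HCT15 alone, SUPT4H1 and ARSA fell and STOM rose. SLPI rose in both lines, and more in HCT15. With the block, 13 of the 21 changed in opposite directions, since ABCA3, GGT6, PDGFRL and SESN3 also fell in HCT15 and ARSA also rose in DLD1. The block adjusted p was 0.00828 for ABCA3, 0.0196 for GGT6, 0.0188 for PDGFRL and 0.0068 for SESN3 in HCT15, and 0.000564 for ARSA in DLD1. Without the block, the count of 8 was 1 when replicate 1, 3 or 4 of DLD1 or replicate 1 of HCT15 was left out, 3 without replicate 2 of DLD1 or replicate 3 of HCT15, 6 without replicate 2 of HCT15, and 14 without replicate 4 of HCT15. Over all genes with the block, 450 genes changed in opposite directions, 233 upward in DLD1 and 217 upward in HCT15. Among the rest of the 3017, 510 rose and 531 fell in DLD1 alone, 558 rose and 615 fell in HCT15 alone, 74 rose in both lines, 31 fell in both, and 248 passed in neither line alone. A line in which a gene did not pass is not shown to lack the effect.

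**Figure D1:**
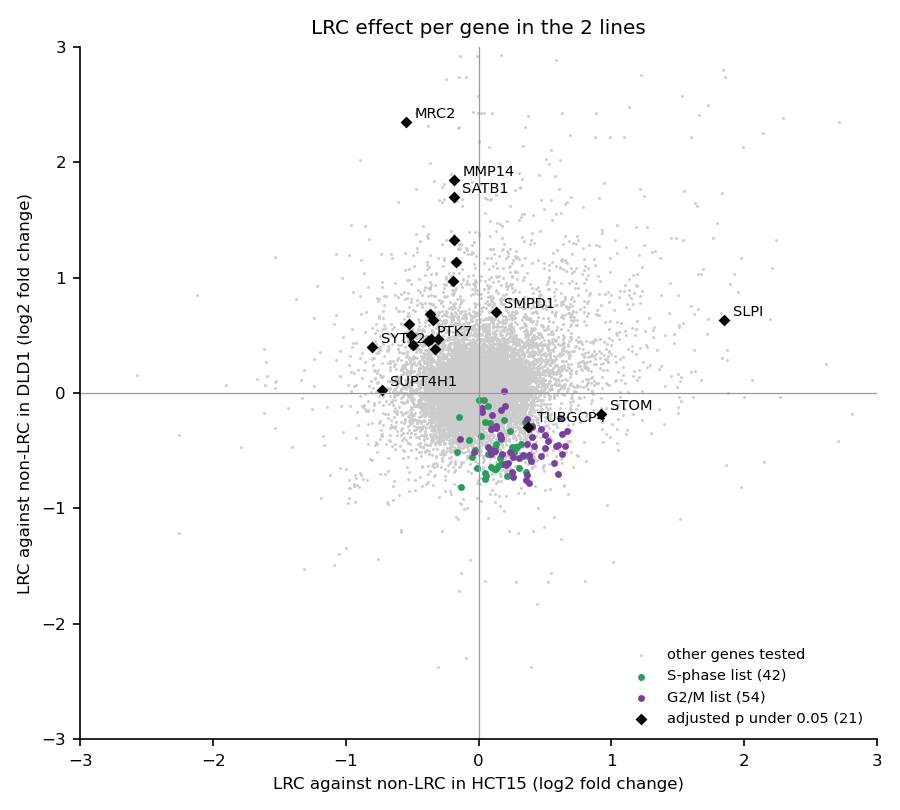
LRC effect (log2 fold change of LRCs over non-LRCs, no block) of each gene tested in HCT15 on the x axis against DLD1 on the y axis, with the 21 genes whose difference passed as black diamonds, the S-phase list in green and the G2/M list in purple (18 genes lie outside the axes). MRC2 and SYTL2 lie in the upper left, raised in DLD1 and lowered in HCT15, and the S-phase and G2/M genes lie mostly in the lower right, below 0 in DLD1 and above 0 in HCT15.

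Among the genes with opposite effects, SYTL2 (ENSG00000137501, chr11:85405267-85522202 on GRCh37) had the smallest p. It encodes a synaptotagmin-like protein that ties Rab27 vesicles to the plasma membrane. In DLD1, SYTL2 stood at 181, 166, 188 and 204 CPM in LRCs and at 133, 127, 149 and 151 CPM in non-LRCs. In HCT15, SYTL2 stood at 64.5, 64.9, 66.7 and 82.7 CPM in LRCs and at 112, 132, 112 and 131 CPM in non-LRCs. The populations did not overlap in either line, with LRCs above non-LRCs in DLD1 and below them in HCT15. SYTL2 had an LRC effect of 0.40 ± 0.093 (adjusted p = 0.0195) in DLD1 and -0.80 ± 0.094 (adjusted p = 0.000387) in HCT15, a difference of 1.2 ± 0.13 (adjusted p = 0.000765). Group means were 185 ± 15.7 CPM and 140 ± 11.7 CPM in DLD1 LRCs and non-LRCs, and 69.7 ± 8.7 CPM and 121 ± 11.3 CPM in HCT15 (SD, n = 4).

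PTK7 (ENSG00000112655, chr6:43044045-43129457), a catalytically inactive receptor kinase that acts as a Wnt co-receptor, behaved in the same way at a higher level. In DLD1, PTK7 stood at 288, 260, 362 and 336 CPM in LRCs and at 223, 219, 233 and 235 CPM in non-LRCs. In HCT15, PTK7 stood at 247, 230, 240 and 268 CPM in LRCs and at 362, 312, 306 and 304 CPM in non-LRCs. All DLD1 LRC values lay above all DLD1 non-LRC values, and all HCT15 LRC values lay below all HCT15 non-LRC values. Its LRC effect was 0.46 ± 0.092 (adjusted p = 0.00988) in DLD1 and -0.38 ± 0.091 (adjusted p = 0.0227) in HCT15, and the difference was 0.84 ± 0.13 (adjusted p = 0.00974). FURIN (ENSG00000140564, chr15:91411818-91426794) is a proprotein convertase that cleaves and activates secreted and membrane proteins, MMP14 among them. In DLD1, FURIN stood at 223, 225, 226 and 222 CPM in LRCs and at 177, 180, 162 and 168 CPM in non-LRCs. In HCT15, FURIN stood at 392, 382, 464 and 464 CPM in LRCs and at 627, 507, 508 and 495 CPM in non-LRCs. Again neither line had an overlap between populations, and replicate 1 of the HCT15 non-LRCs stood above its group. FURIN had an LRC effect of 0.39 ± 0.083 (adjusted p = 0.0143) in DLD1 and -0.33 ± 0.083 (adjusted p = 0.0278) in HCT15, a difference of 0.71 ± 0.12 (adjusted p = 0.0139).

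MRC2 (ENSG00000011028, chr17:60705031-60770958), the endocytic collagen receptor, had the largest difference of the 21. In DLD1, MRC2 stood at 1.22, 1.76, 1.53 and 1.53 CPM in LRCs and at 0.281, 0.278, 0.207 and 0.415 CPM in non-LRCs. In HCT15, MRC2 stood at 49.8, 49.4, 59.2 and 68.5 CPM in LRCs and at 97.5, 73.5, 82.6 and 77.5 CPM in non-LRCs. The gene was far lower in DLD1 than in HCT15, with 16 to 25 reads per DLD1 LRC library and 3 to 5 per DLD1 non-LRC library, so its DLD1 effect has a large counting error. Its LRC effect was 2.35 ± 0.32 (adjusted p = 0.000945) in DLD1 and -0.55 ± 0.11 (adjusted p = 0.00724) in HCT15, and the difference was 2.90 ± 0.34 (adjusted p = 0.000872). IDUA, a lysosomal enzyme that degrades glycosaminoglycans, differed by 1.01 ± 0.16 (adjusted p = 0.0138). TNS2, a focal adhesion protein, differed by 0.83 ± 0.14 (adjusted p = 0.0213) and ANKRD29, an ankyrin repeat protein, by 1.12 ± 0.18 (adjusted p = 0.0139). All 3 rose in DLD1, with effects of 0.47 for TNS2, 0.51 for IDUA and 0.60 for ANKRD29. They fell by 0.36, 0.51 and 0.52 on the log2 scale in HCT15.

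TUBGCP4 (ENSG00000137822, chr15:43661419-43701969) was the only gene of the 21 that moved the other way in both lines. It is a subunit of the gamma-tubulin ring complex, which nucleates microtubules. In DLD1, TUBGCP4 stood at 42.5, 41.5, 38.9 and 41.3 CPM in LRCs and at 45.8, 53.8, 48.5 and 52.7 CPM in non-LRCs. In HCT15, TUBGCP4 stood at 40.3, 44.7, 40.3 and 35.1 CPM in LRCs and at 32.6, 34.1, 29.1 and 27.6 CPM in non-LRCs. LRCs lay below non-LRCs in DLD1 and above them in HCT15, without overlap. TUBGCP4 had an LRC effect of -0.29 ± 0.084 (adjusted p = 0.0493) in DLD1 and 0.38 ± 0.084 (adjusted p = 0.0164) in HCT15, a difference of -0.67 ± 0.12 (adjusted p = 0.0272).

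Without the block, the genes that rose in DLD1 and did not pass in HCT15 were led by MMP14 (ENSG00000157227, chr14:23305769-23318250), a membrane-anchored collagenase. In DLD1, MMP14 stood at 5.72, 4.85, 6.19 and 6.2 CPM in LRCs and at 2.18, 2.09, 1.38 and 0.581 CPM in non-LRCs. In HCT15, MMP14 stood at 26.8, 22.3, 29.6 and 30.2 CPM in LRCs and at 34.8, 29.9, 28.6 and 30.5 CPM in non-LRCs. The DLD1 populations did not overlap, whereas those of HCT15 did. Its LRC effect was 1.85 ± 0.23 (adjusted p = 0.000633) in DLD1 and -0.18 ± 0.15 (adjusted p = 0.508) in HCT15, and the difference was 2.03 ± 0.28 (adjusted p = 0.00523). SATB1 (ENSG00000182568, chr3:18386869-18487113) organizes chromatin loops around sets of genes. In DLD1, SATB1 stood at 5.34, 4.85, 9.69 and 9.26 CPM in LRCs and at 1.9, 2.99, 2.21 and 1.74 CPM in non-LRCs. In HCT15, SATB1 stood at 36.9, 30.7, 32.7 and 37.7 CPM in LRCs and at 39.9, 40, 35.6 and 41.4 CPM in non-LRCs. It followed the order of MMP14, with separate populations in DLD1. SATB1 had an LRC effect of 1.70 ± 0.23 (adjusted p = 0.000771) in DLD1 and -0.18 ± 0.16 (adjusted p = 0.52) in HCT15, a difference of 1.89 ± 0.28 (adjusted p = 0.00737).

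SESN3 (ENSG00000149212, chr11:94898677-94965705), a sestrin that is induced by FOXO factors and restrains mTORC1, was also higher in LRCs of DLD1. In DLD1, SESN3 stood at 98.5, 91.8, 115 and 122 CPM in LRCs and at 69.5, 66.6, 65.5 and 64.3 CPM in non-LRCs. In HCT15, SESN3 stood at 16.1, 18.6, 17.6 and 20.8 CPM in LRCs and at 24.3, 28.1, 18.4 and 23.4 CPM in non-LRCs. DLD1 LRCs lay above all DLD1 non-LRCs, and the HCT15 ranges overlapped. Its LRC effect was 0.68 ± 0.11 (adjusted p = 0.00292) in DLD1 and -0.37 ± 0.12 (adjusted p = 0.0729) in HCT15, and the difference was 1.05 ± 0.16 (adjusted p = 0.00974). SMPD1 (ENSG00000166311, chr11:6411670-6416228) encodes lysosomal acid sphingomyelinase. In DLD1, SMPD1 stood at 65.9, 57.5, 63.1 and 63.9 CPM in LRCs and at 38.6, 36.4, 39.4 and 39.6 CPM in non-LRCs. In HCT15, SMPD1 stood at 60.8, 61.9, 62.5 and 62 CPM in LRCs and at 62.6, 52.3, 57.6 and 52.9 CPM in non-LRCs. The DLD1 populations were again separate, and the difference was the smallest of the 21. SMPD1 had an LRC effect of 0.70 ± 0.067 (adjusted p = 2.94e-05) in DLD1 and 0.13 ± 0.065 (adjusted p = 0.24) in HCT15, a difference of 0.57 ± 0.093 (adjusted p = 0.0139).

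The other genes of this pattern rose by 0.47 to 1.33 on the log2 scale in DLD1. DBN1, the actin-binding protein drebrin, differed between the lines by 1.31 ± 0.19 (adjusted p = 0.00662). GGT6, a member of the gamma-glutamyltransferase family, differed by 1.51 ± 0.23 (adjusted p = 0.00974), and PDGFRL, a protein related to the PDGF receptor, by 0.98 ± 0.18 (adjusted p = 0.0397). ABCA3, a lipid transporter of lysosome-related organelles, differed by 0.77 ± 0.15 (adjusted p = 0.0477), and CPE, a carboxypeptidase that matures peptide hormones, by 1.16 ± 0.21 (adjusted p = 0.0272).

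Of the genes that passed in HCT15 alone without the block, SUPT4H1 (ENSG00000213246, chr17:56422536-56430454), the small subunit of the transcription elongation factor DSIF, fell in LRCs. In DLD1, SUPT4H1 stood at 669, 697, 607 and 587 CPM in LRCs and at 639, 718, 574 and 586 CPM in non-LRCs. In HCT15, SUPT4H1 stood at 430, 558, 486 and 545 CPM in LRCs and at 873, 830, 824 and 817 CPM in non-LRCs. The HCT15 populations were separate and those of DLD1 overlapped. Its LRC effect was 0.024 ± 0.09 (adjusted p = 0.909) in DLD1 and -0.73 ± 0.09 (adjusted p = 0.000527) in HCT15, and the difference was 0.75 ± 0.13 (adjusted p = 0.0179). ARSA, the lysosomal enzyme arylsulfatase A, had an effect of 0.42 ± 0.12 (adjusted p = 0.0522) in DLD1 and fell by 0.49 in HCT15 (adjusted p = 0.0249), with a difference of 0.91 ± 0.17 (adjusted p = 0.0428). STOM (ENSG00000148175, chr9:124101265-124132582), the membrane protein stomatin, rose in HCT15. In DLD1, STOM stood at 31.6, 31.9, 23.5 and 25.3 CPM in LRCs and at 32.5, 34.1, 30.3 and 30.4 CPM in non-LRCs. In HCT15, STOM stood at 8.05, 8.45, 6.3 and 6.32 CPM in LRCs and at 4.27, 4.56, 3.03 and 3.46 CPM in non-LRCs. The HCT15 populations were separate, and in DLD1 the effect did not pass. STOM had an LRC effect of -0.18 ± 0.12 (adjusted p = 0.416) in DLD1 and 0.92 ± 0.15 (adjusted p = 0.00372) in HCT15, a difference of -1.11 ± 0.20 (adjusted p = 0.0272).

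SLPI (ENSG00000124107, chr20:43880880-43883205), a secreted inhibitor of leukocyte proteases, rose in LRCs of both lines from similar levels in non-LRCs. In DLD1, SLPI stood at 11.9, 11, 9.98 and 9.77 CPM in LRCs and at 6.46, 7.03, 7.52 and 6.39 CPM in non-LRCs. In HCT15, SLPI stood at 19.7, 25.1, 21 and 13.1 CPM in LRCs and at 6, 5.74, 5.75 and 4.26 CPM in non-LRCs. The populations did not overlap in either line. Its LRC effect was 0.64 ± 0.17 (adjusted p = 0.0348) in DLD1 and 1.85 ± 0.17 (adjusted p = 3.38e-05) in HCT15, and the difference was -1.22 ± 0.23 (adjusted p = 0.05). The difference lay just under the threshold of 0.05, with adjusted p = 1.57e-05 with the block.

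**Figure D2:**
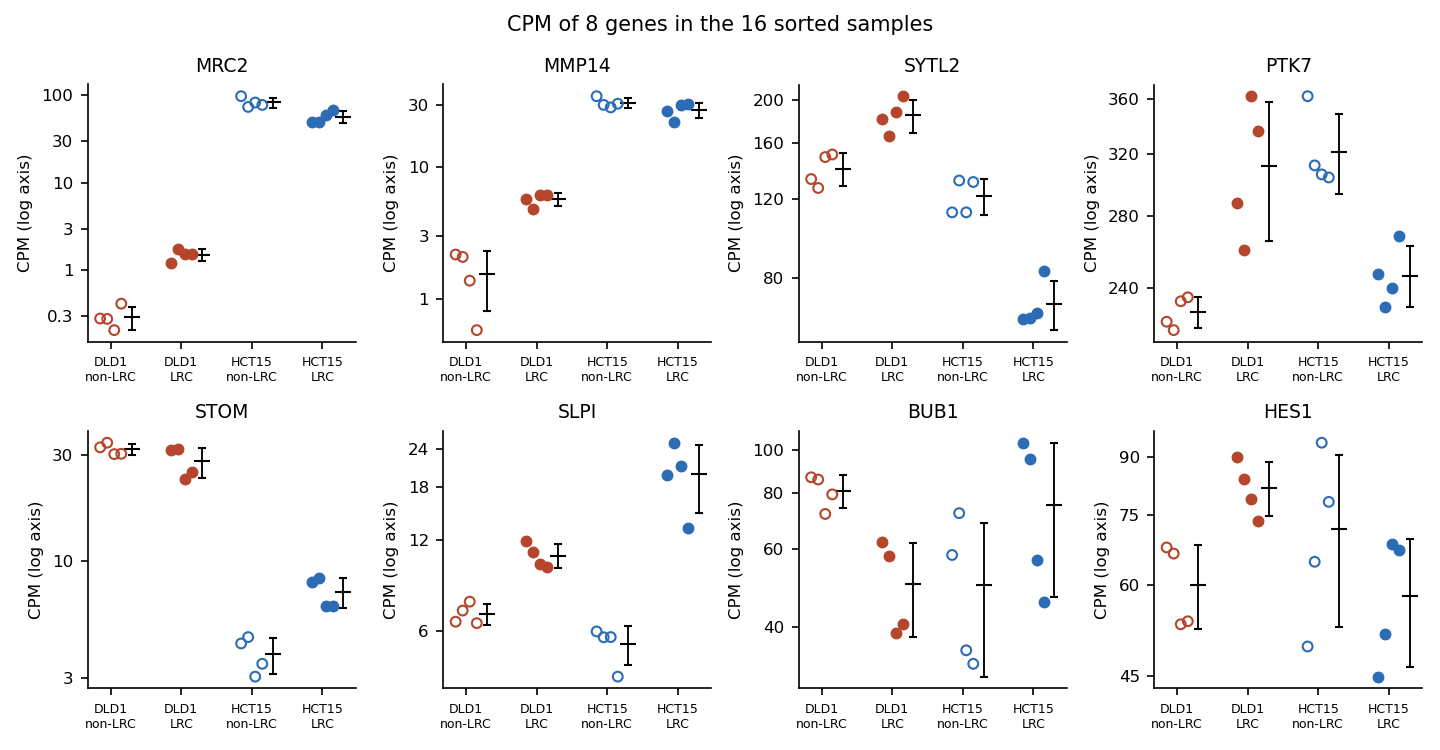
CPM (log axis) of 8 genes in each of the 16 samples, with filled points for LRCs, open points for non-LRCs, and the mean with its SD (n = 4) beside each group. SYTL2 and PTK7 show LRC points above the non-LRC points in DLD1 and below them in HCT15, STOM shows separate populations in HCT15, and BUB1 and HES1 show overlapping populations in HCT15.

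The genes of the cell cycle showed a broad contrast between the lines, and its members passed only with the block. In DLD1 the S-phase list had a median LRC effect of -0.50 and the G2/M list of -0.46, and in HCT15 the medians were 0.13 and 0.32. In the difference, 42 of 42 S-phase genes and 54 of 54 G2/M genes lay below 0, with medians of -0.70 and -0.81 beside 0.013 over all genes tested. None of the 42 or 54 passed in the difference without the block, where 21 genes of all those tested did. With it, 37 S-phase genes and 48 G2/M genes were lower in DLD1 and none was higher, beside 10% of all genes tested that were lower and 10.6% that were higher. In DLD1 alone, 16 S-phase and 3 G2/M genes (CDC20, NCAPD2 and LBR) fell without the block, beside 2.94% of all genes, and 38 and 46 fell with it, beside 11.8%. In HCT15 alone none of either list passed without the block, and 13 S-phase and 36 G2/M genes rose with it, beside 13.8%, while 1 S-phase gene, UNG, fell. In sorted cells measured in bulk, fewer cells in a phase of the cycle and less transcript per cell cannot be told apart.

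The contrast was present in every pair of libraries with the same number. The median S-phase effect in DLD1 was -0.35, -0.35, -0.67 and -0.69 in pairs 1 to 4, and in HCT15 it was 0.27, 0.11, 0.07 and 0.04. For G2/M genes the DLD1 pairs stood at -0.30, -0.36, -0.59 and -0.69 and the HCT15 pairs at 0.60, 0.22, 0.21 and 0.18. The lowest HCT15 pair therefore lay above the highest DLD1 pair for both lists, and the HCT15 effect on S-phase genes was close to 0 in pairs 3 and 4. The 4 LRC minus non-LRC values of a gene did not overlap between the lines, with HCT15 higher, for 35 of the 42 S-phase genes and 47 of the 54 G2/M genes, beside 11.6% of all genes tested.

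**Figure D3:**
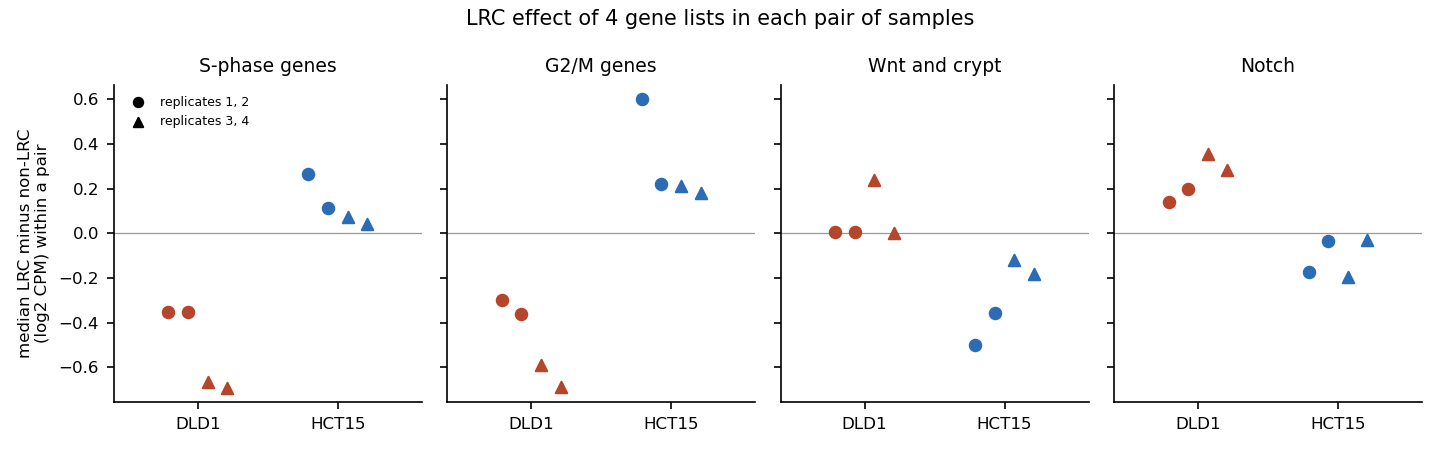
Median LRC effect (difference of log2 CPM) of the S-phase, G2/M, Wnt and Notch lists in each pair of LRC and non-LRC libraries with the same replicate number, 4 pairs per line, with circles for replicates 1 and 2 and triangles for 3 and 4. For the S-phase and G2/M lists the DLD1 pairs lie between -0.69 and -0.30 and the HCT15 pairs between 0.04 and 0.60.

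BUB1, a kinase of the spindle checkpoint, shows how these genes were spread. In DLD1, BUB1 stood at 62.3, 57.9, 38.7 and 40.6 CPM in LRCs and at 87, 86, 71.9 and 79.6 CPM in non-LRCs. In HCT15, BUB1 stood at 104, 95.6, 56.5 and 45.5 CPM in LRCs and at 58.1, 72.2, 35.4 and 33 CPM in non-LRCs. Within HCT15, LRCs of replicates 3 and 4 were lower in CPM than the non-LRCs of replicates 1 and 2, so the populations overlapped, but in each number LRCs were above non-LRCs. Its difference was -1.30 ± 0.37 (adjusted p = 0.118, and 5.12e-08 with the block). CDC20, which activates the anaphase-promoting complex, had effects of -0.73 in DLD1 and 0.26 in HCT15 and a difference of -0.99 ± 0.28 (adjusted p = 0.118, and 1.94e-07 with the block). MKI67, the proliferation marker Ki-67, had effects of -0.63 in DLD1 and 0.20 in HCT15 and differed by -0.83 ± 0.30 (adjusted p = 0.182, and 2.28e-05 with the block). TTK, another checkpoint kinase, differed by -1.17 ± 0.37 (adjusted p = 0.142, and 8.95e-06 with the block), and FOXM1, the factor that drives mitotic genes, by -0.91 ± 0.27 (adjusted p = 0.127, and 8.94e-07 with the block).

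Genes of DNA replication differed in the same way. In DLD1, TYMS stood at 110, 85.7, 78.4 and 80.4 CPM in LRCs and at 155, 136, 144 and 149 CPM in non-LRCs. In HCT15, TYMS stood at 152, 150, 95.2 and 93.3 CPM in LRCs and at 130, 140, 106 and 96 CPM in non-LRCs. TYMS, thymidylate synthase, had effects of -0.72 in DLD1 and 0.055 in HCT15 and a difference of -0.78 ± 0.23 (adjusted p = 0.124, and 4.99e-06 with the block). RRM1, the large subunit of ribonucleotide reductase, differed by -0.78 ± 0.20 (adjusted p = 0.103, and 1.43e-06 with the block). MCM4, a subunit of the replicative helicase, differed by -0.78 ± 0.21 (adjusted p = 0.104, and 2.5e-06 with the block). MCM2 of the same helicase had effects of -0.54 in DLD1 and 0.057 in HCT15 and differed by -0.59 ± 0.21 (adjusted p = 0.177, and 3.7e-05 with the block). Of the 23 genes of nucleotide synthesis, 8 fell in DLD1 without the block and 20 with it, beside 2.94% and 11.8% of all genes. In the difference with the block 14 were lower and 1, SLC29A2, was higher, beside 10% and 10.6% of all genes. The medians were -0.32 in DLD1 and 0.002 in HCT15.

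The cyclins and the kinases they activate were part of the contrast, and the CDK inhibitors mostly were not. Among 21 genes of the RB, E2F and cyclin list, 11 were lower and 1, RBL2, was higher in the difference with the block. Of all genes, 10% were lower and 10.6% higher. The medians of the list were -0.29 in DLD1 and 0.081 in HCT15. CCNA2, cyclin A2, differed by -1.03 ± 0.28 (adjusted p = 0.108, and 6.88e-07 with the block), CCNB1, cyclin B1, by -0.94 ± 0.28 (adjusted p = 0.127, and 8.87e-06 with the block) and CDK2 by -0.67 ± 0.19 (adjusted p = 0.12, and 2.14e-05 with the block). E2F1, with effects of -0.36 in DLD1 and 0.20 in HCT15, differed by -0.55 ± 0.29 (adjusted p = 0.325, and 0.00137 with the block). CCND1, cyclin D1, had effects of -0.17 in DLD1 and 0.033 in HCT15 and differed by -0.20 ± 0.12 (adjusted p = 0.398, and 0.0619 with the block). Of the 6 CDK inhibitors tested, 1 passed in the difference with the block, beside 20.6% of all genes. It was CDKN2B, the TGF-beta-responsive inhibitor p15, with effects of 1.86 in DLD1 and 0.33 in HCT15. Its difference was 1.53 ± 0.32 (adjusted p = 0.0649, and 1.04e-05 with the block). CDKN1A, which encodes p21, had effects of 0.69 in DLD1 and 0.67 in HCT15, and the difference was 0.019 ± 0.41 (adjusted p = 0.988, and 0.887 with the block) with a 95% confidence interval of -0.85 to 0.89. CDKN1B differed by 0.038 ± 0.10 (adjusted p = 0.875, and 0.778 with the block) and CDKN1C by 0.39 ± 0.23 (adjusted p = 0.376, and 0.0628 with the block).

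Promoters of S-phase and G2/M genes are known to carry different sequence elements. Promoters are printed here for genes of these lists that were lower in the difference with the block, chosen for a small p. Only genes with a searched word in the 120 bases before the start were taken, so holding it is no result. The G2/M examples hold TTTGAA, the core of the cell cycle genes homology region (CHR), and the S-phase examples hold a word of the E2F site. The sequences are the 120 bases before the gene start from RefSeq on GRCh38.p14, 5′ to 3′ on the gene's strand, with the matches in capitals. They are CDC20 (chr1:43358861-43358980, plus strand), ANLN (chr7:36389742-36389861, plus strand), CCNB2 (chr15:59105026-59105145, plus strand), DTL (chr1:212035628-212035747, plus strand), TYMS (chr18:657533-657652, plus strand) and PCNA (chr20:5126623-5126742, minus strand). ANLN holds the word on both strands side by side, and TYMS and PCNA hold the reverse complement of an E2F word.

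CDC20: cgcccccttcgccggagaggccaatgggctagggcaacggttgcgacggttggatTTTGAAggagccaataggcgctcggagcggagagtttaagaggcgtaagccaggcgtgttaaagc
ANLN: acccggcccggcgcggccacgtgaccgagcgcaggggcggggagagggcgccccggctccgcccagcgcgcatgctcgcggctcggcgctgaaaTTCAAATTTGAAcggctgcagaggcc
CCNB2: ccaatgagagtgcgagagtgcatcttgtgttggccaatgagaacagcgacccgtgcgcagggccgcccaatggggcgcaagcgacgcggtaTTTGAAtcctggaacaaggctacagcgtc
DTL: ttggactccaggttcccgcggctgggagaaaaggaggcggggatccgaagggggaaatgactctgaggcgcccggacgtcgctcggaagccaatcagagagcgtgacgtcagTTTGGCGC
TYMS: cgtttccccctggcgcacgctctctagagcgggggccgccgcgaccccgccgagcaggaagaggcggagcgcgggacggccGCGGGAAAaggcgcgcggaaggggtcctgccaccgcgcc
PCNA: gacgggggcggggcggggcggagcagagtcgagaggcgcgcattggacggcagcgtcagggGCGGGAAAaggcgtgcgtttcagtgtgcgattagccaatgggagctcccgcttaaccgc

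ANLN encodes anillin of the cleavage furrow and had effects of -0.45 in DLD1 and 0.60 in HCT15, with a difference of -1.05 ± 0.39 (adjusted p = 0.188, and 4.73e-07 with the block). CCNB2, cyclin B2, had effects of -0.76 in DLD1 and 0.35 in HCT15 and differed by -1.11 (adjusted p = 0.131, and 7.93e-07 with the block). DTL, a ubiquitin ligase subunit of S phase, had effects of -0.71 in DLD1 and 0.22 in HCT15 and differed by -0.93 ± 0.29 (adjusted p = 0.139, and 9.2e-07 with the block). PCNA, the sliding clamp of DNA polymerase, had effects of -0.57 in DLD1 and 0.16 in HCT15 and differed by -0.73 (adjusted p = 0.139, and 7.03e-06 with the block). CCNB2 and PCNA were named after their values were seen.

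Of the symbols tested, 10794 of 14614 had a promoter of 300 bases (250 before and 50 after the start) in the table. TTTGAA, searched on both strands, was in 9.7% of these promoters. It was in 31 of 45 promoters of the G2/M list (68.9%) and in 1 of 32 of the S-phase list (3.1%). The E2F words TTTCCCGC, TTTCGCGC, TTTGCCGC and TTTGGCGC, none of which contains another, were in 5.3% of all promoters, in 15 of 32 of the S-phase list (46.9%) and in 3 of 45 of the G2/M list (6.7%). Among genes called with the block, TTTGAA was in 15.6% of the 1177 promoters of genes higher in HCT15 and in 7.8% of the 1168 of genes higher in DLD1, and an E2F word was in 10.2% and 4.7%. CCAAT, searched the same way, was in 36.7% of all promoters, 43% of those higher in HCT15 and 32.5% of those higher in DLD1. The genes higher in HCT15 include the cell cycle lists themselves. A match is a description of the sequence, and factor binding was not measured.

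Ribosome biogenesis followed the replication genes at a smaller size. Of 36 genes, 18 were lower in the difference with the block and none was higher, beside 10% and 10.6% of all genes, with medians of -0.18 in DLD1 and 0.035 in HCT15. DDX21, a helicase of the nucleolus, differed by -0.58 ± 0.18 (adjusted p = 0.139, and 1.68e-05 with the block) and FBL, the rRNA methyltransferase fibrillarin, by -0.58 ± 0.17 (adjusted p = 0.123, and 9.18e-05 with the block). MYC, which drives both growth and ribosome synthesis, had effects of -0.40 in DLD1 and -0.05 in HCT15 and differed by -0.35 ± 0.13 (adjusted p = 0.19, and 0.00151 with the block). The histone genes that could be tested went the other way. Of 43 listed, 14 could be tested, and the other 29 were too low or absent from the counts, so the 14 may not stand for the list. Without the block 8 rose in DLD1 and 2 (H2BC11 and H1-2) in HCT15, beside 2.99% and 3.26% of all genes. In the difference with the block 7 were higher, beside 10.6% of all genes. H2AC6 had effects of 1.13 in DLD1 and 0.038 in HCT15 and differed by 1.09 ± 0.31 (adjusted p = 0.118, and 1.3e-07 with the block), and H2BC4 differed by 1.30 ± 0.30 (adjusted p = 0.0756, and 0.000122 with the block). Histone genes are near-identical copies, so their counts are uncertain.

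Many Wnt target and crypt genes were relatively higher in LRCs of DLD1. Of 23 genes tested, 13 were higher and 1 was lower in the difference with the block, beside 10.6% and 10% of all genes, and PTK7 was the 1 that passed without it. The median effect was 0.079 in DLD1 and -0.36 in HCT15, where 5 fell (PTK7, NOTUM, TNFRSF19, SP5 and NKD1) and 1 rose (DKK1) without the block, beside 2.70% and 3.26% of all genes. With it 13 fell and 2 rose in HCT15, beside 12.8% and 13.8% of all genes. The pairs stood at 0.01, 0.01, 0.24 and 0.00 in DLD1 and at -0.50, -0.36, -0.12 and -0.18 in HCT15, so the difference came mainly from lower values in HCT15 LRCs. APCDD1, a Wnt inhibitor that Wnt itself induces, shows it. In DLD1, APCDD1 stood at 23, 17.3, 29.4 and 26.3 CPM in LRCs and at 16.2, 15.9, 21.3 and 19.5 CPM in non-LRCs. In HCT15, APCDD1 stood at 40.6, 43.6, 121 and 164 CPM in LRCs and at 89.1, 85, 266 and 273 CPM in non-LRCs. Its effects were 0.40 in DLD1 and -0.95 in HCT15, and the difference was 1.35 ± 0.62 (adjusted p = 0.267, and 2.65e-08 with the block).

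NOTUM, a secreted deacylase that inactivates Wnt ligands, fell in HCT15 (effects of 0.65 in DLD1 and -0.72 in HCT15, adjusted p = 0.0229 in HCT15), and its difference was 1.37 (adjusted p = 0.0573, and 9.2e-07 with the block). LEF1, a nuclear partner of beta-catenin, differed by 0.74 ± 0.36 (adjusted p = 0.289, and 8.94e-07 with the block). The feedback inhibitor AXIN2 had effects of -0.038 in DLD1 and -0.53 in HCT15 and differed by 0.49 (adjusted p = 0.31, and 0.000444 with the block), and ASCL2, the crypt stem cell factor, had effects of 0.14 in DLD1 and -0.73 in HCT15 and differed by 0.87 (adjusted p = 0.285, and 1.43e-06 with the block). MYC was the member that was lower in DLD1. LGR5, the crypt stem cell receptor, had 408 to 924 reads per DLD1 library but 0 to 5 per HCT15 library, so no HCT15 effect can be read from it, and its DLD1 effect was -0.43 ± 0.17 (adjusted p = 0.151), and -0.44 ± 0.08 (adjusted p = 0.000334) with the block. NOTUM, AXIN2 and ASCL2 were named after their values were seen.

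Notch genes were arranged likewise. Of 18 tested, 8 were higher in the difference with the block and none was lower, beside 10.6% and 10% of all genes, and the median effect was 0.41 in DLD1 and -0.17 in HCT15. In 10 of 18 the pair values did not overlap, with DLD1 higher, beside 11.5% of all genes. In DLD1, HES1 stood at 89.9, 84, 78.8 and 73.6 CPM in LRCs and at 67.6, 66.3, 53 and 53.5 CPM in non-LRCs. In HCT15, HES1 stood at 44.9, 51.4, 68.3 and 67.1 CPM in LRCs and at 49.4, 64.6, 94.2 and 78.1 CPM in non-LRCs. The DLD1 populations were separate and the HCT15 populations overlapped. HES1, the main target of the pathway, had effects of 0.44 in DLD1 and -0.31 in HCT15 and differed by 0.75 ± 0.23 (adjusted p = 0.139, and 2.44e-06 with the block). The ligand JAG1 differed by 0.46 ± 0.14 (adjusted p = 0.132, and 7.54e-05 with the block) and the receptor NOTCH3 by 0.80 ± 0.27 (adjusted p = 0.157, and 0.000113 with the block).

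Genes of TGF-beta and BMP signaling included 10 of 22 that were higher in the difference with the block and none that was lower, beside 10.6% and 10% of all genes, with medians of 0.19 in DLD1 and -0.15 in HCT15. BAMBI, a decoy receptor, had effects of 0.53 in DLD1 and -0.47 in HCT15 and differed by 1.0 ± 0.25 (adjusted p = 0.103, and 4.73e-07 with the block). TGFB2, a ligand, had effects of 0.38 in DLD1 and -0.60 in HCT15 and differed by 0.98 ± 0.32 (adjusted p = 0.145, and 1.51e-06 with the block). ID3, an early BMP target, had effects of -0.086 in DLD1 and -0.79 in HCT15 and fell in HCT15 (adjusted p = 0.0362), with a difference of 0.70 ± 0.29 (adjusted p = 0.231, and 1.27e-06 with the block). Of 17 Hedgehog genes tested, 3 were higher in the difference with the block, PTCH1, KIF7 and VLDLR, beside 10.6% of all genes tested. PTCH1, the receptor and a target of the pathway, differed by 0.35 ± 0.14 (adjusted p = 0.209, and 0.0115 with the block). GLI1, the transcription factor of the pathway, had 2 to 8 reads per DLD1 library, so no difference can be read from it.

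**Figure D4:**
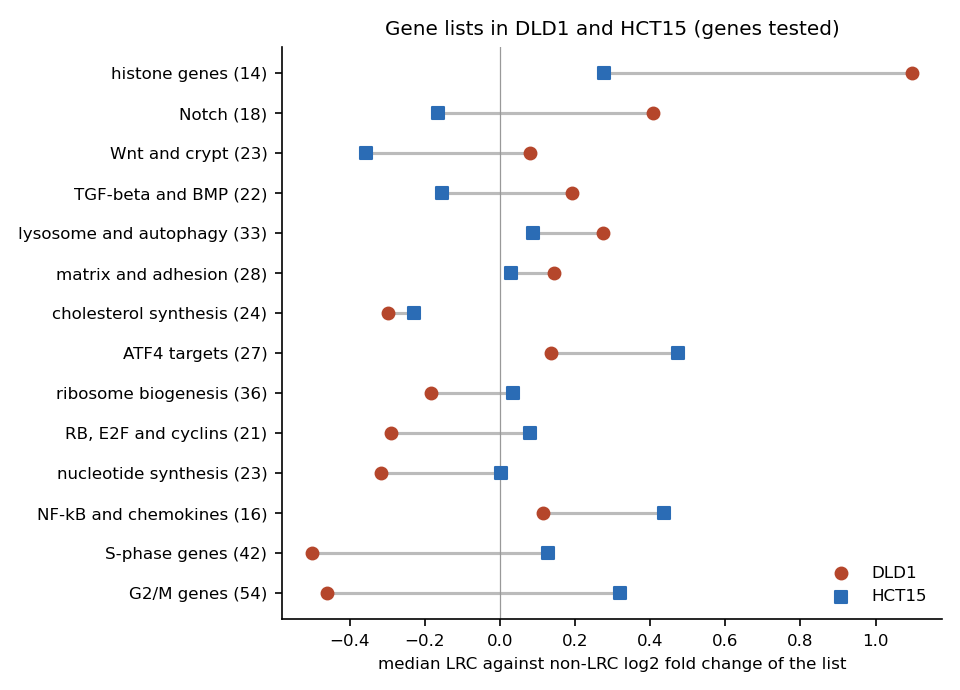
Median LRC effect (log2 fold change, no block) of 14 gene lists in DLD1 (circles) and HCT15 (squares), with the number of genes tested beside each name. The S-phase, G2/M, nucleotide and ribosome biogenesis lists lie below 0 in DLD1 and at or above 0 in HCT15, the Wnt and Notch lists lie above 0 in DLD1 and below 0 in HCT15, and cholesterol synthesis lies below 0 in both.

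Parts of the matrix and lysosome lists were relatively higher in LRCs of DLD1. Of 28 matrix and adhesion genes, 10 were higher in the difference with the block and none was lower, beside 10.6% and 10% of all genes, and MMP14 passed without it. THBS1, a matricellular glycoprotein, differed by 0.62 ± 0.41 (adjusted p = 0.434, and 3.33e-05 with the block) and MMP15, a relative of MMP14, by 0.58 ± 0.14 (adjusted p = 0.0859, and 0.00019 with the block). Of 33 lysosome and autophagy genes, 8 rose in DLD1 and 4 (MAP1LC3B, SQSTM1, CTSS and NEU1) in HCT15 without the block and none fell, beside 2.99% and 3.26% of all genes that rose. In the difference 10 were higher with the block and none was lower, beside 10.6% and 10% of all genes. The medians were 0.28 in DLD1 and 0.087 in HCT15. GRN, progranulin, rose in DLD1 (effects of 0.42 in DLD1 and -0.064 in HCT15, adjusted p = 0.0385 in DLD1) and differed by 0.48 ± 0.16 (adjusted p = 0.153, and 0.000731 with the block). ATG2A, a lipid transfer protein of the autophagosome, rose in DLD1 as well (effects of 0.48 in DLD1 and 0.081 in HCT15, adjusted p = 0.00367 in DLD1) and differed by 0.40 ± 0.11 (adjusted p = 0.118, and 0.000773 with the block).

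Parts of the stress and NF-kB target lists were relatively higher in LRCs of HCT15. Among 27 targets of ATF4, the factor of the amino acid and integrated stress response, 5 rose in HCT15 (ATF3, DDIT3, NUPR1, SESN2 and SLC3A2) and 4 in DLD1 (ATF3, DDIT3, NUPR1 and SLC6A9) without the block, beside 3.26% and 2.99% of all genes, and 22 and 12 rose with it, beside 13.8% and 12.2%. The medians were 0.47 in HCT15 and 0.14 in DLD1. In the difference 11 of the 27 were lower and 2, ATF3 and VLDLR, higher with the block, beside 10% and 10.6% of all genes. TRIB3, a pseudokinase induced by ATF4, had effects of -0.075 in DLD1 and 0.69 in HCT15 and differed by -0.76 ± 0.39 (adjusted p = 0.312, and 6.57e-07 with the block). MTHFD2, an enzyme of mitochondrial folate metabolism, differed by -0.66 ± 0.34 (adjusted p = 0.316, and 6.71e-06 with the block). Of 16 NF-kB targets and chemokines, 6 rose in HCT15 without the block, beside 3.26% of all genes, and ICAM1 rose and CXCL5 fell in DLD1. With the block 5 were lower and 1, NFKBIA, was higher in the difference, beside 10% and 10.6% of all genes. The chemokine CXCL5 fell in DLD1 (adjusted p = 0.00962), with effects of -0.63 in DLD1 and 0.48 in HCT15 and a difference of -1.11 ± 0.23 (adjusted p = 0.0649, and 0.000396 with the block). RELB, an NF-kB subunit and target, rose in HCT15 (adjusted p = 0.0151), with effects of 0.32 in DLD1 and 0.87 in HCT15 and a difference of -0.55 ± 0.28 (adjusted p = 0.303, and 0.00421 with the block). The summed immune markers ran from 6.19 to 16.9 CPM in LRCs and from 2.76 to 7.59 in non-LRCs of DLD1, and from 18.4 to 36.9 and from 11.5 to 18.3 in HCT15. The samples were cultures of cell lines, and the part of these transcripts in the values above was not tested.

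Some effects had the same direction in both lines. Cholesterol synthesis genes had medians of -0.30 in DLD1 and -0.23 in HCT15, where 1 (LSS) and 4 (LSS, TM7SF2 and SREBF2 among them) of 24 fell without the block, beside 2.94% and 2.70% of all genes, and 15 fell in each line with it, beside 11.8% and 12.8%. In the difference with the block 3 of the 24 (HMGCS1, ACAT2 and EBP) were lower and 1, TM7SF2, was higher. Of all genes, 10% were lower and 10.6% higher. ABCG1, a cholesterol exporter, rose in both lines (effects of 1.69 in DLD1 and 0.91 in HCT15, adjusted p = 2.94e-05 and 0.0065), and its difference was 0.78 ± 0.23 (adjusted p = 0.127, and 0.00188 with the block). CLU, the secreted chaperone clusterin, had effects of 0.78 ± 0.15 (adjusted p = 0.00746) in DLD1 and 0.82 ± 0.15 (adjusted p = 0.00587) in HCT15, and the 95% confidence interval of the difference was -0.48 to 0.40. KRT20, a keratin of differentiated colon cells, did not share a direction and passed in neither line without the block. Its effects were -0.12 ± 0.13 (adjusted p = 0.664) in DLD1 and 0.21 ± 0.19 (adjusted p = 0.544) in HCT15. They differed by -0.32 ± 0.23 (adjusted p = 0.473, and 0.207 with the block).

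The lines of the other subtypes show where the DLD1 and HCT15 effects lie among colorectal cancer lines. In a fit of all 48 sorted samples with 16603 genes tested, the median S-phase effect was 0.04 in HT55, -0.03 in SW948, -0.67 in RKO and -0.27 in SW48, and for G2/M genes it was 0.07, 0.03, -0.51 and -0.52. In the same fit DLD1 had medians of -0.52 and -0.48 and HCT15 of 0.12 and 0.31, so HCT15 had the highest G2/M median of the 6 lines and DLD1 lay near RKO and SW48. The Wnt list had a median of -0.34 in HCT15, 0.04 in DLD1 and -0.08 to 0.18 in the other lines. Of the 18 genes higher in DLD1, 9 rose in RKO and 4 in SW48, none passed in HT55 or SW948, and none fell in these 4 lines. Over all genes tested in that fit, 14.5% rose in RKO, 2.24% in SW48, 2.14% in SW948 and 0.5% in HT55. The counts were not tested against each other.

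LRCs hold more CFSE than non-LRCs, and the effect of the dye itself was measured in unsorted DLD1 spheroids, with 4 CFSE-labeled and 4 unlabeled DMSO controls on the later day (5 in the labels). Of 14518 genes tested, 745 passed (5.13%), 451 higher and 294 lower with the dye. S-phase genes were higher with the dye, with a median of 0.75 and 35 of 42 called up. So were G2/M genes, with a median of 0.60 and 34 of 54 called up, beside 3.11% of all genes. None of either list was called down. In the fit of 48 samples the LRC medians of these lists were -0.52 and -0.48 in DLD1, and 0.12 and 0.31 in HCT15. Of the 21 genes called in the difference between lines, 1 passed for the dye, ARSA, which fell with it (-0.82 ± 0.17, adjusted p = 0.0197), and the median dye effect of the 21 was -0.30. Of the genes called with the block, 162 of the 1535 higher in DLD1 and 331 of the 1458 higher in HCT15 also passed for the dye. Of all genes tested for the dye, 5.13% passed. The median dye effect was -0.38 for the genes higher in DLD1 and 0.34 for those higher in HCT15. The part of the dye in the difference was not tested. No such control of HCT15 was analysed here, so a dye effect that differs between the lines cannot be told apart from the LRC effect.

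**Figure D5:**
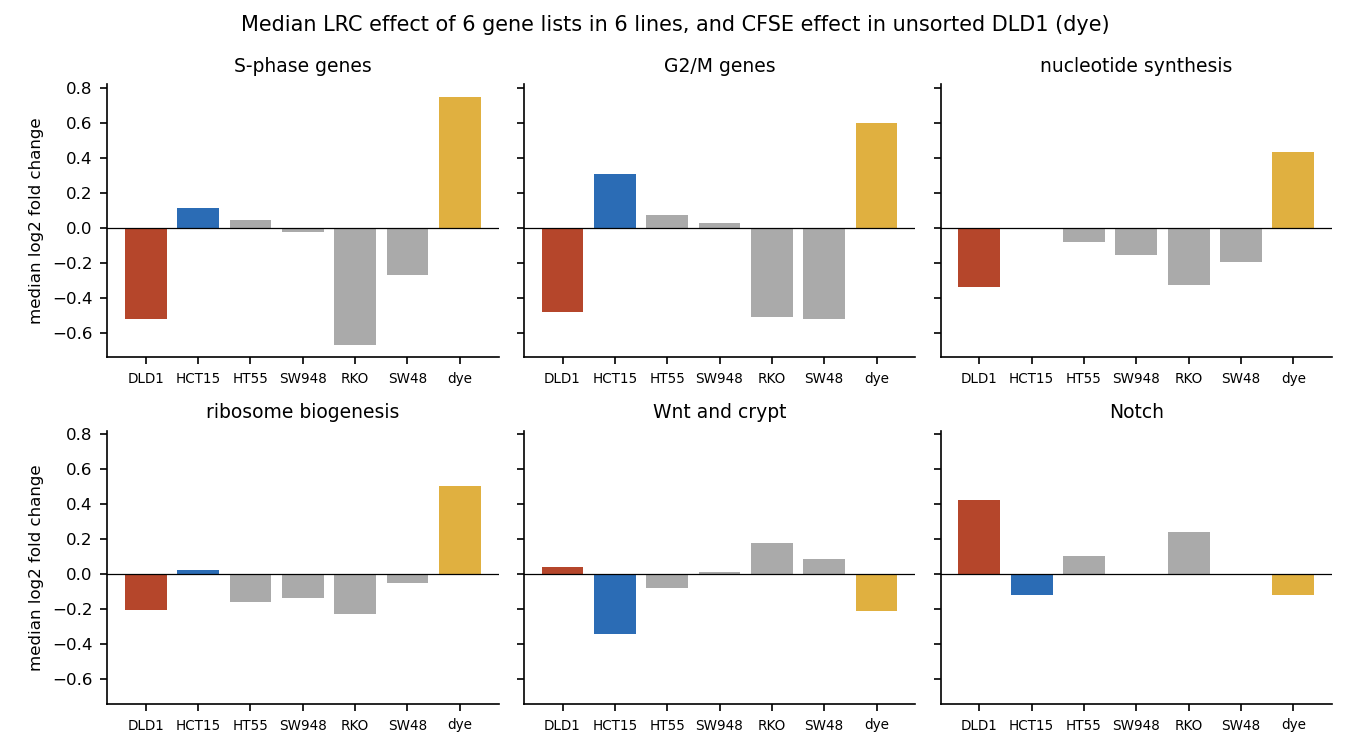
Bars of the median LRC effect (log2 fold change) of 6 gene lists in each of the 6 sorted lines, from the fit of 48 samples, and of the median CFSE effect in unsorted DLD1 (dye). For G2/M genes HCT15 (0.31) is the highest of the 6 lines, DLD1, RKO and SW48 lie below 0, and the dye bar (0.60) lies above 0.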

How the data were processed

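RNA was sequenced as 50-base single-end reads from TruSeq libraries on the HiSeq system. Whole-number read counts of 54127 Ensembl genes were deposited for each of the 64 samples, with no normalization by the authors. The submitters' processing notes name TopHat, HTSeq, DESeq and hg19, and the gene annotation is not given in the sources used here. HTSeq assigns no read that overlaps several genes, so genes with near-identical copies are uncertain. Summary lines at the foot of each table were left out. Reads outside genes were 7.15% to 11.3% of the reads that were assigned to a gene, outside genes or ambiguous between genes. Symbols and GRCh37 positions came from GENCODE release 44, and promoters from RefSeq on GRCh38.p14.

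Groups and replicate numbers came from the labels. The paper describes its experiments as biological quadruplicates, without saying what separated the replicates. The labels do not say that replicates came from separate cultures, so p-values measure the spread between these samples, which may be technical. A gene was tested where 4 or more of the 16 samples reached 10 counts, in R 4.3.3 with edgeR 4.0.16 (TMM, quasi-likelihood test, 2-sided, 4 group means, no block, as the study names no block), with Benjamini-Hochberg adjustment over all genes and a threshold of 0.05. CPM used TMM library sizes, and ± after a log2 value is its standard error. The test was tried on simulated counts. DESeq2 1.42.0 was an alternative. Figures were drawn with matplotlib 3.10.9.

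LRC and non-LRC libraries share replicate numbers in the labels, and this pairing was checked with the deviations from group means. Their correlation between LRCs and non-LRCs of the same number was 0.19 to 0.41 in DLD1 and 0.31 to 0.53 in HCT15. Other numbers within replicates 1 and 2 or within 3 and 4 gave 0.20 to 0.29 and 0.33 to 0.53, and numbers across them -0.34 to -0.17 and -0.53 to -0.29. The same-number range overlapped that of other numbers within replicates 1 and 2 or within 3 and 4 in both lines. The check therefore shows the split of 1 and 2 from 3 and 4, and not a pairing by number. The block follows the numbers of the labels and has 8 levels, 4 per line.

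The members and the 53 gene lists were chosen with earlier results of these data known. Named genes were, among those called, up to 10 in each direction with the largest difference and no overlap of the pair values, up to 5 in each direction with opposite effects, up to 3 of each list with the smallest p, and a fixed set of markers. The other genes called without the block, and the list members with the smallest p with the block, were added after seeing the data, and so were the members named to show which genes a small count holds. Lists are given as counts and medians, with no set test, and some members are not reported here by name. At this depth genes with few counts have a large counting error.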

Additional observations from a re-analysis of the deposited data

Results flagged for a closer look

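The LRC effect differed between the lines by the test of the difference itself (edgeR, no block) in 21 genes. The difference on the log2 scale, DLD1 minus HCT15, was 2.90 for MRC2, 2.03 for MMP14, 1.89 for SATB1, 1.51 for GGT6, 1.31 for DBN1, 1.2 for SYTL2, 1.16 for CPE, 1.12 for ANKRD29, 1.05 for SESN3 and 1.01 for IDUA. It was 0.98 for PDGFRL, 0.91 for ARSA, 0.84 for PTK7, 0.83 for TNS2, 0.77 for ABCA3, 0.75 for SUPT4H1, 0.71 for FURIN and 0.57 for SMPD1. It was -0.67 for TUBGCP4, -1.11 for STOM and -1.22 for SLPI.

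In 30 genes with 4 groups each, 120 groups in all, 1 sample stood far from the others of its group in 4 groups, where chance alone would mark about 1 in 20. They were SYTL2 in replicate 4 of the HCT15 LRCs (82.7 CPM, others 64.5 to 66.7), PTK7 in replicate 1 of the HCT15 non-LRCs (362, others 304 to 312), FURIN in the same library (627, others 495 to 508) and SLPI in replicate 4 of the HCT15 non-LRCs (4.26, others 5.74 to 6).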

How the results depend on the processing

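The number of genes with a different LRC effect depended on the treatment of the replicates. Beside 21 genes, the difference passed in 415 by DESeq2, 297 with at least 1 count in place of 10, 93 with all 48 sorted samples in 1 fit, 3017 with the replicate block, 2674 with replicates 1 and 2 against 3 and 4 as a term, 690 in replicates 1 and 2 alone, 1140 in replicates 3 and 4 alone and 2148 by DESeq2 with the block (added after seeing the data, as was leaving out numbers in the blocked fit). The corresponding counts for HCT15 were 1335 by DESeq2, 3889 with the block, 3567 with the term, 1863 and 1373 in replicates 1 and 2 and 3 and 4 alone, and 2858 by DESeq2 with the block. For DLD1 they were 3502 with the block, 3178 with the term, 1763 in replicates 3 and 4 alone and 2555 by DESeq2 with the block. Genes with opposite effects, 8 without the block, numbered 19 by DESeq2, 13 with at least 1 count, 450 with the block, 379 with the term, 53 and 116 in replicates 1 and 2 and 3 and 4 alone, and 296 by DESeq2 with the block. Leaving out each replicate number gave 2 to 65 genes for the difference (lowest without DLD1 replicate 3, highest without HCT15 replicate 4), 109 to 1228 for DLD1, 153 to 898 for HCT15 and 1 to 14 with opposite effects. With the block and a number left out, these were 2039 to 3021, 2166 to 4053, 2666 to 3758 and 289 to 452. The cause of these changes was not tested.

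Of the list medians, the DLD1 histone median was 0.71 with at least 1 count and the DLD1 Notch median 0.2 with at least 10 counts in every sample, where fewer genes were tested. The HCT15 TGF-beta and BMP median was -0.24 with at least 10 counts in every sample and -0.001 in replicates 3 and 4 alone. The DLD1 lysosome median was 0.18 in replicates 1 and 2 alone, 0.179 to 0.282 with a replicate number left out, with or without the block, and 0.18 without DLD1 replicate 3. Signs turned for 4 genes with differences near 0. In replicates 1 and 2 alone CDKN1A was at -0.012 and GLI1, with few DLD1 reads, at -0.073, and in replicates 3 and 4 alone CLU was at 0.24. With replicate numbers left out, CDKN1A ranged from -0.041 to 0.099, CDKN1B from -0.024 to 0.079 and CLU from -0.132 to 0.072. Of the 21 genes, all passed with DESeq2, with the block and with the term, and 2 to 19 passed when 1 replicate number was left out without the block. The block changed no sign among the 21.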
